A study of Mus musculus with 10 samples.

Results

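The enzymes that build the lipids of myelin were followed through 10 genes in the hippocampus of mice after subarachnoid hemorrhage (SAH): Ugt8a, Gal3st1, Fa2h, Cers2, Elovl1, Elovl7, Aspa, Sptlc2, Degs1 and Galc. They were taken by gene name from the 24391 names in the count tables, 19538 of them detected in 1 or more mice, and all 10 had enough counts to be tested. The animals were male mice aged 10 to 14 weeks of the strain that the study's methods write as C56BL/6J, and bilateral whole hippocampi were taken 4 days after surgery, with 1 RNA-seq library per mouse. In the 4 SAH mice a filament passed up the artery perforated a vessel at the base of the brain, which let blood into the subarachnoid space. In the 3 Sham mice the filament was advanced but nothing was perforated, and the 3 Naive mice had no operation. Sham and Naive mice together are called control (n = 6). Surgery was done under isoflurane anesthesia, and the labels name no drug treatment. RNA came from the whole tissue, so that neurons, glia, vessels and any attached membrane share a library, and fewer cells of a type and less RNA per cell cannot be told apart.

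Myelin is the stack of oligodendrocyte membrane wrapped around axons, and its outer leaflet is rich in galactosylceramide and in sulfatide, its sulfated form. Both are made from ceramide, a sphingoid base joined to a fatty acid, and in myelin that fatty acid is often very long and carries a hydroxyl group. SPTLC2 and DEGS1 serve the making of ceramide in most cells, ELOVL1, ELOVL7 and CERS2 lengthen fatty acids and join long ones to the base, and FA2H, UGT8 and GAL3ST1 add the hydroxyl group, the galactose and the sulfate. ASPA releases acetate from N-acetylaspartate, a source of carbon for lipid synthesis in oligodendrocytes, and GALC breaks galactosylceramide down in lysosomes.

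The 10 genes lie at separate places in the genome (build mm9, coordinates from the deposited count tables). Ugt8a spans chr3:125568261-125641468 on the minus strand in 6 exons, Fa2h chr8:113869038-113917721 on the minus strand in 7 exons, Cers2 chr3:95119174-95127490 on the plus strand in 11 exons, and Elovl1 chr4:118100698-118105557 on the plus strand in 9 exons. Gal3st1 (chr11:3883639-3899331) and Elovl7 (chr13:109004598-109077301) lie on the plus strand. Aspa (chr11:73118490-73138139), Sptlc2 (chr12:88648839-88729180), Degs1 (chr1:184205901-184212890) and Galc (chr12:99440510-99497669) lie on the minus strand. Exons of other genes overlap only 2 of them, on the opposite strand: Setdb1 shares 44 exonic bases with Cers2, and Cdc20 shares 52 with Elovl1. The authors counted reads by strand, which keeps these pairs apart.

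The 250 bases before the annotated start are shown for the 4 genes that fell in SAH against control, with Aspa beside them as the member with the lowest GC content. Each runs 5′ to 3′ along its gene and was read from the mm9 assembly (NCBIM37): Ugt8a at chr3:125641469-125641718, minus strand, Fa2h at chr8:113917722-113917971, minus strand, Cers2 at chr3:95118924-95119173, plus strand, Elovl1 at chr4:118100448-118100697, plus strand, and Aspa at chr11:73138140-73138389, minus strand. Starts are those of the deposited tables, of which 9 lay within 45 bases of a start in the reference annotation, and that of Cers2 was not compared. Capitals mark matches, on either strand, to the SP/KLF GC box (GGGCGG), the CCAAT box (CCAAT), a SOX core (AACAAT) and an E-box (CAGCTG).
Ugt8a: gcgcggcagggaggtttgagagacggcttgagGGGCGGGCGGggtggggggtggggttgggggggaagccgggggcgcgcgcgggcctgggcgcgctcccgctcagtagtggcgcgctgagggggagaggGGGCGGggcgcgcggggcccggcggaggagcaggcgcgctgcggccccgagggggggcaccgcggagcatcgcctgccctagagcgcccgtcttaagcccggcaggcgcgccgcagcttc
Fa2h: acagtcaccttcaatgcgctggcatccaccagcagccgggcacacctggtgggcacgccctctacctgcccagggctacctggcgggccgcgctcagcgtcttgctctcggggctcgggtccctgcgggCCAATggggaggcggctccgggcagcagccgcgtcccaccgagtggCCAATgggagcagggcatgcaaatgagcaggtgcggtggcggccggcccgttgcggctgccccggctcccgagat
Cers2: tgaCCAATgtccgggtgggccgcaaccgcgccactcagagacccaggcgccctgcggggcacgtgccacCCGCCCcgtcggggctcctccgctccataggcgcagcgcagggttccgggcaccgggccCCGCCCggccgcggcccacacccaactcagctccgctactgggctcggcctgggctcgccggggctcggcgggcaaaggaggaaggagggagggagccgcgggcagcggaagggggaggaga
Elovl1: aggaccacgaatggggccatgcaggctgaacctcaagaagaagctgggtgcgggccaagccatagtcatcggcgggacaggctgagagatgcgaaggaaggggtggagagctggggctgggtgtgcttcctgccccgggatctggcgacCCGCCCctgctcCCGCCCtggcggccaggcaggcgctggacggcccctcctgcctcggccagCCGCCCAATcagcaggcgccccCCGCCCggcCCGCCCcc
Aspa: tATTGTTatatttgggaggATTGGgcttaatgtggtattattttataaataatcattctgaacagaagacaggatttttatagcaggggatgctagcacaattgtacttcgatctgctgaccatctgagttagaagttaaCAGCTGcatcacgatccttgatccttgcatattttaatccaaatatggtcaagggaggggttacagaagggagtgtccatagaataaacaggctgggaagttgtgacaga

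GC made up 80.0% of the window of Ugt8a, 71.6% of that of Fa2h, 76.0% for Cers2 and 72.0% for Elovl1, beside a median of 54.8% over 24271 windows of the same length. Of the genes that were not called, Elovl7 lay in the same range at 73.6%, Gal3st1 (65.6%), Sptlc2 (64.4%) and Degs1 (63.2%) lay between that range and the median, and Galc (54.0%) and Aspa (38.8%) lay below the median. The GC box was present in 7 of the 10 genes, Ugt8a, Cers2, Elovl1, Elovl7, Sptlc2, Degs1 and Galc, and in 41.1% of all windows. A CCAAT box was present in 6, Gal3st1, Fa2h, Cers2, Elovl1, Aspa and Sptlc2, and in 35.1% of all windows. In Ugt8a a pair of GC boxes overlap, and in Elovl1 a GC box overlaps the CCAAT box. The SOX core AACAAT and the E-box, held by 8.62% and 12.3% of all windows, were found only in Aspa among the 10 genes, as was TATAAA, held by 12.1% and not capitalised above. The EGR motif (GCGNGGGCG, 6.38% of all windows) was found in Gal3st1, Elovl7 and Sptlc2. A second SOX form (ACAAAG, 15.1%), the MYRF motif (CTGGNAC, 15.4%) and the SREBP motif (TCACNCCAC, 1.02%) were found in 0 of the 10. Such matches are letters in a short window and not sites known to be bound.

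Between 19743388 and 27254655 read pairs were counted per mouse. Markers of mature oligodendrocytes were abundant in every library, with Mbp between 2325 and 4871 CPM, the counts scaled to a common library size. Choroid plexus markers stood apart in 3 libraries, at a summed 1308 CPM in SAH mouse 3, 914.9 in SAH mouse 4 and 879.7 in Sham mouse 7, against 58.1 to 237.1 in the other 7, and of 14 such markers 0 passed the test of SAH against control (edgeR's quasi-likelihood test, with 4 at an unadjusted p under 0.05 and 0 by DESeq2). Against Naive mice alone, 2 of the 14 were called higher (6 by DESeq2, and 12 at an unadjusted p under 0.05), with a median log2 fold change of 2.23. Fold changes without these 3 libraries are given below. Of 12 meningeal fibroblast markers, 11 were higher in SAH, with sums of 233.6 to 440.3 CPM in SAH, 207.6 to 215.9 in Sham and 157.8 to 168.1 in Naive mice. In Sham against Naive 1 of the 12 was called higher by edgeR (0.00661% of all genes were called). At an unadjusted p under 0.05 there were 6 (2.02% of all genes). Higher in SAH were also 2 of 8 microglial, 1 of 8 astrocyte, 3 of 8 endothelial and 1 of 13 hippocampal neuron markers, and the rest of these lists did not pass the test. At an unadjusted p under 0.05 by edgeR these lists held 3, 4, 7 and 5 genes (17.0% of all genes). The log2 fold changes of the endothelial markers ranged from 0.31 to 0.84. The globin genes Hba-a1, Hba-a2, Hbb-b1, Hbb-b2, Hbb-bs and Hbb-bt had 0 counts in every mouse, which allows up to 3 counts in each (their copies are nearly identical, and reads that align to several places were not counted), and the 1 erythroid marker tested did not pass. The part of these markers in the results below was not tested.

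Levels were compared between genes per kilobase of exon. In control mice Degs1 was the most abundant of the 10, at 46.3 ± 1.80 CPM per kilobase (SD, n = 6). Cers2 followed at 35.8 ± 1.72, then Ugt8a at 26.5 ± 3.26, Fa2h at 22.9 ± 1.64 and Aspa at 14.4 ± 1.85. The other 5 lay lower, with Elovl1 at 8.70 ± 0.816, Sptlc2 at 7.60 ± 0.383, Galc at 7.38 ± 0.258, Gal3st1 at 5.93 ± 0.412 and Elovl7 at 4.19 ± 0.772 CPM per kilobase. Neighbours in this order whose control mice overlapped were Ugt8a with Fa2h, Elovl1 with Sptlc2, Sptlc2 with Galc, and Gal3st1 with Elovl7. In SAH mice (n = 4) Degs1 stayed at 45.8 ± 3.35 while Ugt8a was at 16.2 ± 5.15 and Fa2h at 15.6 ± 2.34, and Elovl1, at 6.43 ± 0.468, came below Galc (7.35 ± 0.446) and Sptlc2 (7.27 ± 0.911). By group means, the first 5 places held the same genes in the same order in SAH and control. Neighbours whose SAH mice overlapped were Ugt8a with Fa2h, Fa2h with Aspa, Galc with Sptlc2, Sptlc2 with Elovl1, and Gal3st1 with Elovl7.

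**Figure D1:**
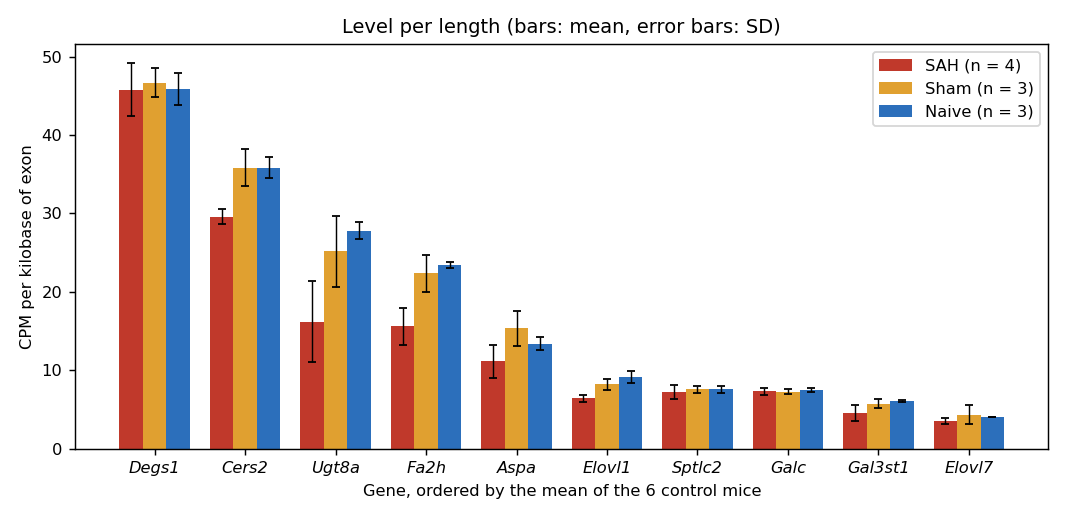
Mean level of each gene in CPM per kilobase of exon (y axis) in SAH (red, n = 4), Sham (orange, n = 3) and Naive (blue, n = 3) mice, with error bars of 1 SD and genes ordered by the control mean. Degs1 stands near 46 in all 3 groups, whereas Ugt8a is at 16.2 in SAH, 25.2 in Sham and 27.8 in Naive mice.

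SAH was first compared with control, the study's own question of what the hemorrhage changes in the hippocampus. Of the 10 genes 4 fell, Ugt8a, Fa2h, Cers2 and Elovl1, and 0 rose (edgeR's quasi-likelihood test, adjusted p under 0.10). Over all 14993 genes tested 4.68% passed in either direction, 1.54% were called lower and 3.13% higher. By the fitted fold change, levels decreased by 38.7% for Ugt8a, decreased by 31.7% for Fa2h, decreased by 25.8% for Elovl1 and decreased by 17.4% for Cers2. At an unadjusted p under 0.05 there were 6 of the 10 (17.0% of all genes), all with negative values. DESeq2 called 6 genes, adding Gal3st1 and Aspa, where it called 1030 of all genes (6.87%). The median log2 fold change of the 10 genes was -0.32, beside a median of -0.0024 over all genes tested. In CPM, every SAH mouse lay below every control mouse for Ugt8a, Fa2h, Cers2 and Elovl1, a pattern found in 2.37% of all genes tested.

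Of the 3 galactolipid enzymes 2 fell. Ugt8a, which transfers galactose to ceramide, was at 73.0, 63.1, 31.2 and 65.9 CPM in SAH mice 1 to 4. It was at 83.1, 79.7 and 109.4 CPM in Sham mice 5 to 7, and at 97.3, 104.4 and 98.3 CPM in Naive mice 8 to 10. All 4 SAH mice lay below all 6 control mice, and SAH mouse 3 lay far below the other SAH mice. The log2 fold change was -0.71 (SE 0.17, adjusted p = 0.0508 by edgeR). Without the 3 libraries high in choroid plexus markers it was -0.44 and passed (adjusted p = 0.0289 by edgeR). When the choroid plexus score entered the fit as a covariate it was -0.63 and did not pass (adjusted p = 0.249 by edgeR), and it also missed the threshold without Naive mouse 8, 9 or 10, with adjusted p-values of 0.104 to 0.11 by edgeR.

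Fa2h, the fatty acid 2-hydroxylase, was at 42.4, 41.7, 30.2 and 41.4 CPM in SAH mice 1 to 4. Sham mice 5 to 7 had 51.8, 52.8 and 62.5 CPM, and Naive mice 8 to 10 had 59.6, 58.1 and 57.9. The groups did not overlap, and 3 of the 4 SAH mice lay close together, with mouse 3 below them. Its log2 fold change of -0.55 (SE 0.088, adjusted p = 0.00521 by edgeR) was past the threshold under every alternative tried, including the choroid plexus covariate (-0.52) and the fit without the 3 libraries high in choroid plexus markers (-0.41).

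Gal3st1, the sulfotransferase that turns galactosylceramide into sulfatide, had 11.3, 10.2, 6.52 and 9.19 CPM in SAH mice 1 to 4. Sham mice 5 to 7 had 11.6, 10.7 and 12.9 CPM, and Naive mice 8 to 10 had 12.9, 12.3 and 12.3. The SAH mice lay below every Naive mouse, but SAH mouse 1 lay above Sham mouse 6. The log2 fold change of -0.38 (SE 0.12, adjusted p = 0.124 by edgeR) did not pass. It passed by DESeq2 (adjusted p = 0.0554) and by edgeR without SAH mouse 1 (adjusted p = 0.0520). It was -0.25 without SAH mouse 3, and -0.16 without the 3 libraries high in choroid plexus markers.

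Among the enzymes of very long fatty acids, 2 of 3 fell. Cers2, the ceramide synthase that takes very long acyl chains, had the smallest fall of the 4 genes and the tightest values. Its 4 SAH mice were at 60.9, 61.6, 59.2 and 57.2 CPM, its Sham mice at 68.6, 70.5 and 77.6, and its Naive mice at 75.5, 70.9 and 70.5. Every SAH mouse lay below every control mouse, and the range of the SAH mice was smaller than the gap between the groups. The log2 fold change was -0.28 (SE 0.045, adjusted p = 0.00608 by edgeR), and it passed under every alternative tried.

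Elovl1, which extends saturated very long fatty acids, was at 11.8, 13.5, 11.6 and 13.0 CPM in the SAH mice. The Sham mice were at 15.1, 15.3 and 17.5 CPM and the Naive mice at 19.0, 18.1 and 16.2. All SAH mice lay below all control mice, and Naive mouse 8 was the highest. The log2 fold change was -0.43 (SE 0.082, adjusted p = 0.0125 by edgeR), and it too passed under every alternative tried. Its relative Elovl7 was at 17.9, 18.2, 18.3 and 22.3 CPM in SAH mice, at 20.8, 19.3 and 31.1 in Sham mice and at 21.7, 21.9 and 21.8 in Naive mice. SAH mouse 4 lay within the range of control, and Sham mouse 7 stood above all others. Its log2 fold change of -0.25 (SE 0.12, adjusted p = 0.314 by edgeR) did not pass. Without Sham mouse 7 it was -0.13, although with the choroid plexus score as covariate it was -0.42 and did (adjusted p = 0.0956 by edgeR).

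**Figure D2:**
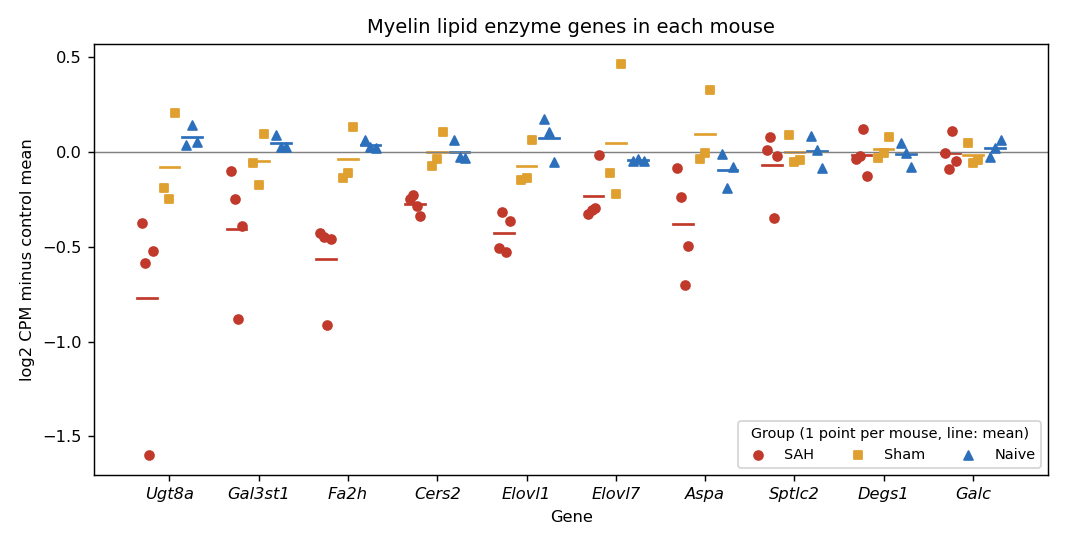
Level of each gene in each mouse (y axis, log2 CPM minus the mean of the 6 control mice), with 1 point per mouse in SAH (red circles), Sham (orange squares) and Naive (blue triangles), and a line at each group mean. The 4 SAH points lie below all control points for Ugt8a, Fa2h, Cers2 and Elovl1, and SAH mouse 3 is the lowest point for 6 of the 10 genes.

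Aspa, the hydrolase that frees acetate from N-acetylaspartate, was at 20.7, 18.6, 13.5 and 15.6 CPM in SAH mice 1 to 4. Sham mice 5 to 7 had 21.5, 21.9 and 27.6 CPM, and Naive mice 8 to 10 had 21.8, 19.3 and 20.8. The SAH mice lay below every Sham mouse, but SAH mouse 1 lay above Naive mouse 9. The log2 fold change of -0.37 (SE 0.12, adjusted p = 0.121 by edgeR) did not pass. It passed by DESeq2 (adjusted p = 0.0545) and without SAH mouse 1 (adjusted p = 0.0470 by edgeR), and it was -0.10 without the 3 libraries high in choroid plexus markers.

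The remaining 3 genes, which act at the start and the end of the pathway, lay near 0. Sptlc2, a subunit of the serine palmitoyltransferase that makes the sphingoid base, was at 28.7, 30.1, 22.3 and 28.0 CPM in SAH and between 26.9 and 30.3 in control. Its log2 fold change was -0.060 (95% interval -0.22 to 0.10, adjusted p = 0.714 by edgeR). Degs1, the desaturase that completes ceramide, was at 90.3, 91.3, 100.9 and 84.8 CPM in SAH and between 87.6 and 97.8 in control, a log2 fold change of -0.015 (95% interval -0.12 to 0.091, adjusted p = 0.903 by edgeR). Galc, the lysosomal galactosylceramidase, was at 28.1, 26.5, 30.5 and 27.3 CPM in SAH and between 27.1 and 29.5 in control, a log2 fold change of -0.0081 (95% interval -0.12 to 0.10, adjusted p = 0.955 by edgeR). For all 3 the groups overlapped. The intervals of Degs1 and Galc leave out a fall as large as that of Cers2, at -0.28, and so does that of Sptlc2.

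SAH mouse 3 had the lowest level of all 10 mice for 6 of the 10 genes, Ugt8a, Gal3st1, Fa2h, Elovl1, Aspa and Sptlc2, and the highest for Degs1 and Galc. Sham mouse 7 had the highest level for 6, Ugt8a, Gal3st1, Fa2h, Cers2, Elovl7 and Aspa. These are among the 3 libraries high in choroid plexus markers, and Sham mouse 7 also had the highest summed level of mature oligodendrocyte markers, at 10950 CPM. With all 3 left out (2 SAH and 5 control mice remaining), the same 4 genes were called, Ugt8a, Fa2h, Cers2 and Elovl1, at log2 fold changes of -0.44, -0.41, -0.21 and -0.39. The SAH mice that remained, 1 and 2, were the highest in meningeal fibroblast markers, at a summed 440.3 and 410.5 CPM. The median log2 fold change of these markers was 1.53 in that fit, beside 1.15 with all mice. Their part in the calls that remained was not tested.

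SAH was then compared with each control group on its own, in a fit of the 3 groups that shares its estimate of the spread. Both comparisons use the same SAH mice. Against Sham, the surgical control, 2 genes fell, Fa2h and Cers2, where 0.720% of 15134 genes passed in either direction and 0.192% were called lower. Fa2h had a log2 fold change of -0.51 (SE 0.10) and Cers2 one of -0.28 (SE 0.056), both with an adjusted p of 0.0682 by edgeR. Ugt8a at -0.63 (adjusted p = 0.300), Aspa at -0.47 (0.211), Elovl1 at -0.35 (0.147), Gal3st1 at -0.33 (0.478) and Elovl7 at -0.30 (0.518 by edgeR) did not pass. DESeq2 called 4 genes, adding Elovl1 (adjusted p = 0.0660) and Aspa (adjusted p = 0.0663), where it called 302 of all genes (2.0%). The SAH mice lay below all 3 Sham mice for Ugt8a, Fa2h, Cers2, Elovl1 and Aspa, as they did for 4.45% of all genes. Both calls against Sham were lost without SAH mouse 4, without any 1 of the Naive or Sham mice, and with Sham and SAH mice fitted alone. Without Sham mouse 7 Elovl7 was at -0.059. With each mouse left out in turn, Gal3st1 ranged from -0.43 to -0.20 against Sham. Without the 3 libraries high in choroid plexus markers, Fa2h was at -0.31 and passed (adjusted p = 0.0289 by edgeR). The others did not pass, with Cers2 at -0.18, Ugt8a and Elovl1 at -0.26, Elovl7 at -0.15, Aspa at -0.14 and Gal3st1 at -0.059.

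Against Naive mice, 4 genes fell, the same ones as against control, where 2.99% of all genes passed in either direction and 0.965% were called lower. Ugt8a was at a log2 fold change of -0.78 (SE 0.21, adjusted p = 0.0937), Fa2h at -0.59 (SE 0.10, adjusted p = 0.0160), Elovl1 at -0.51 (SE 0.091, adjusted p = 0.0160) and Cers2 at -0.28 (SE 0.056, adjusted p = 0.0272, all by edgeR). Gal3st1 was at -0.43 (adjusted p = 0.185), Aspa at -0.27 (0.372) and Elovl7 at -0.18 (0.580 by edgeR), and these did not pass. The SAH mice lay below all 3 Naive mice for Ugt8a, Gal3st1, Fa2h, Cers2 and Elovl1, as they did for 6.75% of all genes. Leaving out Naive mouse 8 ended all 4 calls, and leaving out Naive mouse 9 left 2. The call of Ugt8a was also lost without SAH mouse 4, Naive mouse 10 or any 1 of the Sham mice. Over all fits with 1 mouse left out, those that kept the call included, its adjusted p ranged from 0.0063 to 0.311 by edgeR. The call of Ugt8a was lost as well in 6 of 9 other alternatives, by DESeq2 (adjusted p = 0.106), with library size alone, with at least 10 counts in every mouse, at an adjusted p under 0.05, with SAH and Naive mice fitted alone, and with the choroid plexus covariate (adjusted p = 0.771 by edgeR). With the choroid plexus covariate Elovl1 alone was called. Without the 3 libraries high in choroid plexus markers all 4 were called, with Ugt8a at -0.55, Fa2h at -0.47, Elovl1 at -0.48 and Cers2 at -0.24, and Aspa was at -0.073, Gal3st1 at -0.22 and Elovl7 at -0.27.

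Surgery without perforation was addressed by Sham against Naive. Of the 10 genes 0 passed in edgeR's test, 0 had an unadjusted p under 0.05 (2.02% of all genes did), and DESeq2 also called 0, where 1 of 15134 genes (0.00661%) passed in edgeR. The log2 fold changes ranged from -0.15 for Elovl1 to 0.19 for Aspa, with a median of -0.022. The interval was widest for Ugt8a, at -0.62 to 0.34, so that a difference of that size was not detectable, and narrow for Cers2, at -0.13 to 0.13.

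**Figure D3:**
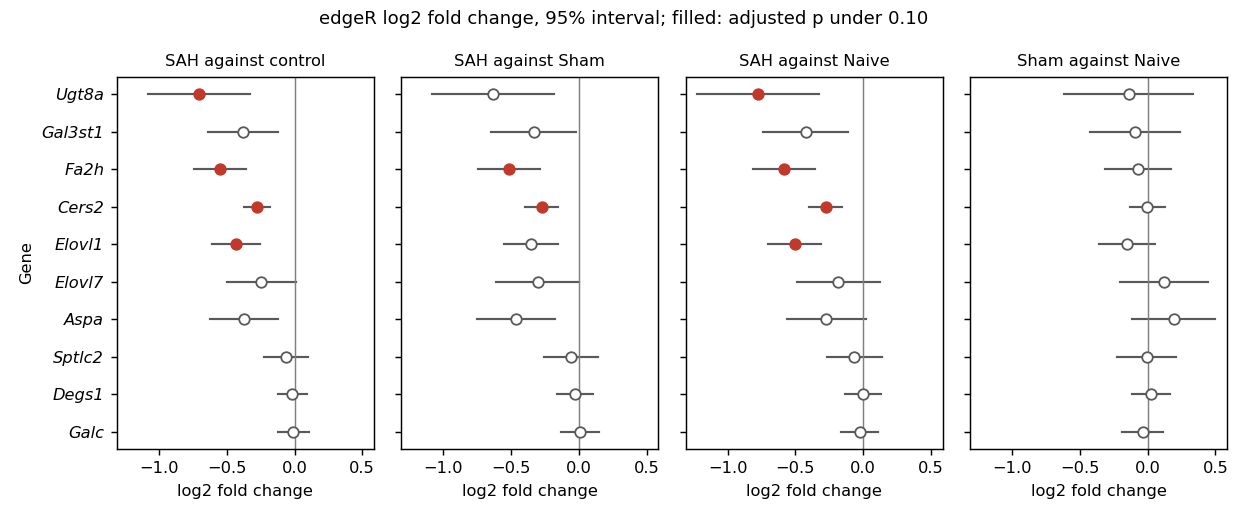
Log2 fold change of each gene (x axis) with its 95% interval in the 4 comparisons, filled where the adjusted p from edgeR is under 0.10. Fa2h and Cers2 are filled in all 3 comparisons of SAH, Ugt8a and Elovl1 against control and Naive, and no gene in Sham against Naive.

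Most mature oligodendrocyte markers fell as well. Of 15 tested, 12 fell and 1 rose in SAH against control, with a median log2 fold change of -0.53. Mog, a protein of the outer myelin surface, was at -0.73, and Mbp, a major protein of compact myelin, at -0.59. Apod, which carries lipids, rose by 0.94 on the log2 scale, and Gjb1 (-0.45) and Trf (-0.095) did not pass. The 15 markers summed to 5706 to 7081 CPM in SAH, 7997 to 10950 in Sham and 9104 to 9819 in Naive mice, without overlap between SAH and control. Without the 3 libraries high in choroid plexus markers 10 of the 15 fell and 1 rose, with a median of -0.40. Of 12 markers of oligodendrocyte precursors and newly formed oligodendrocytes 1 was called lower (4 by DESeq2, and 7 of the 12 had an unadjusted p under 0.05, of which Bmp4, named after its values were seen, was higher at 0.38), with a median of -0.20.

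Each gene was therefore also described relative to these markers, as its log2 CPM minus the mean log2 CPM of the 15 markers in the same mouse, set to 0 in control. The marker mean itself fell by 0.42 in SAH, or fell by 0.29 without the 3 libraries high in choroid plexus markers. Relative to it, Gal3st1 (0.019 ± 0.29, SD, n = 4), Elovl1 (-0.0051 ± 0.16) and Aspa (0.045 ± 0.19) had means close to 0. For Gal3st1 and Aspa mouse 3, at -0.41 and -0.23, set that mean, since without it they were at 0.16 and 0.14. Degs1 (0.41 ± 0.14) and Galc (0.42 ± 0.15) were above control in all 4 SAH mice, as were 56.6% of all genes on this scale, and Sptlc2 (0.35 ± 0.18), Elovl7 (0.19 ± 0.24) and Cers2 (0.15 ± 0.067) had positive means with overlap. Ugt8a and Fa2h were the 2 genes with means below -0.1, at -0.35 ± 0.53 and -0.14 ± 0.22. For Ugt8a this came from mouse 3 at -1.12, with SAH mice 1, 2 and 4 at -0.070, -0.22 and 0.027, against -0.15 to 0.20 in control. Without mouse 3 the means were -0.087 for Ugt8a and -0.037 for Fa2h. Without all 3 libraries high in choroid plexus markers (2 SAH and 5 control mice) they were -0.15 and -0.12, Elovl1 was at -0.11, Gal3st1 at 0.14, Aspa at 0.20, Cers2 at 0.076, Elovl7 at 0.071, Degs1 at 0.28, Galc at 0.24 and Sptlc2 at 0.33. The reference holds Apod, which moved the other way. With the other 14 markers, an alternative chosen after seeing the data, the marker mean fell by 0.52, and the SAH means were -0.25 for Ugt8a, -0.044 for Fa2h, 0.11 for Gal3st1, 0.088 for Elovl1 and 0.14 for Aspa, with the other 5 genes between 0.24 and 0.51. These ratios are given as a description, without a test.

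**Figure D4:**
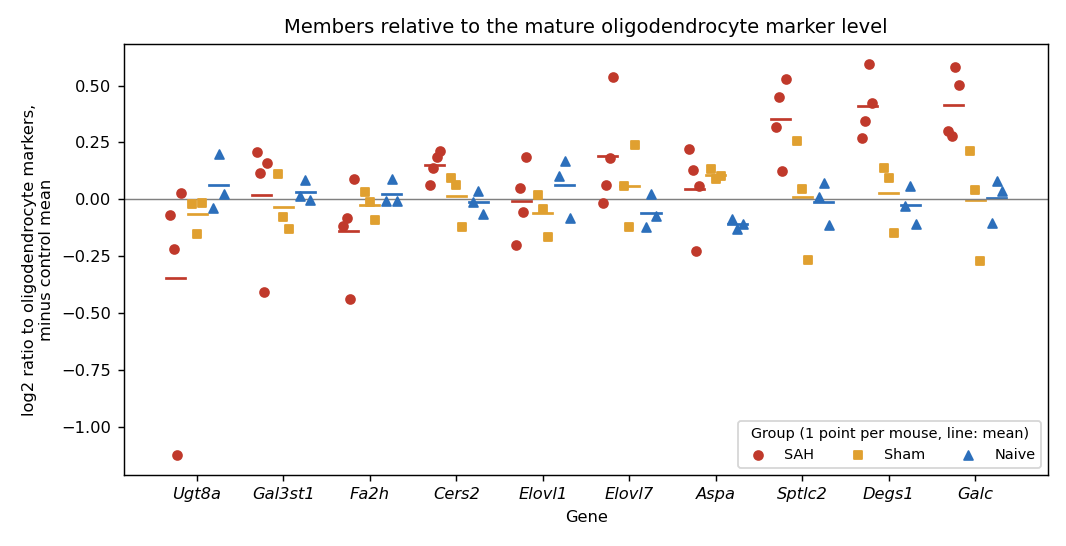
Level of each gene relative to 15 mature oligodendrocyte markers (y axis, log2 ratio minus the control mean), with 1 point per mouse and a line at each group mean, in SAH (red circles), Sham (orange squares) and Naive (blue triangles). Degs1 and Galc lie above control in every SAH mouse, Gal3st1, Elovl1 and Aspa have SAH means near 0 over 4 mice, and SAH mouse 3 is the lowest SAH point for Ugt8a (-1.12), Gal3st1 (-0.41), Fa2h (-0.44) and Aspa (-0.23).

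Other genes of sphingolipid, fatty acid and N-acetylaspartate metabolism were read from 6 lists, which name 103 genes outside the 10. Of the 100 tested, 2 fell and 1 rose in SAH against control, 3.0% of them beside 4.68% of all genes, and their median log2 fold change was 0.0044. Gltp, a transfer protein for glycolipids, fell by 0.29 on the log2 scale (SE 0.071, adjusted p = 0.0464 by edgeR), from 43.4 ± 4.10 CPM in control to 35.4 ± 1.78 in SAH. Slc27a4, which takes up and activates long fatty acids, fell by 0.15 (SE 0.042, adjusted p = 0.0882 by edgeR).

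By list, 0 of 16 genes of ceramide synthesis, 0 of 13 of ganglioside synthesis, 0 of 16 of peroxisomal and plasmalogen metabolism and 0 of 8 of N-acetylaspartate and acetate metabolism passed in edgeR's test. At an unadjusted p under 0.05 (17.0% of all genes) these lists held 5, 1, 2 and 3 genes. DESeq2, which called 6.87% of all genes, called 0, 0, 1 and 1. Sphingolipid degradation held 1 lower and 1 higher gene of 23, with 7 at an unadjusted p under 0.05, and 1 lower and 3 higher by DESeq2. Fatty acid synthesis and elongation held 1 lower gene of 24, with 2 at an unadjusted p under 0.05, and 1 lower by DESeq2. The list medians lay between -0.038 and 0.037.

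**Figure D5:**
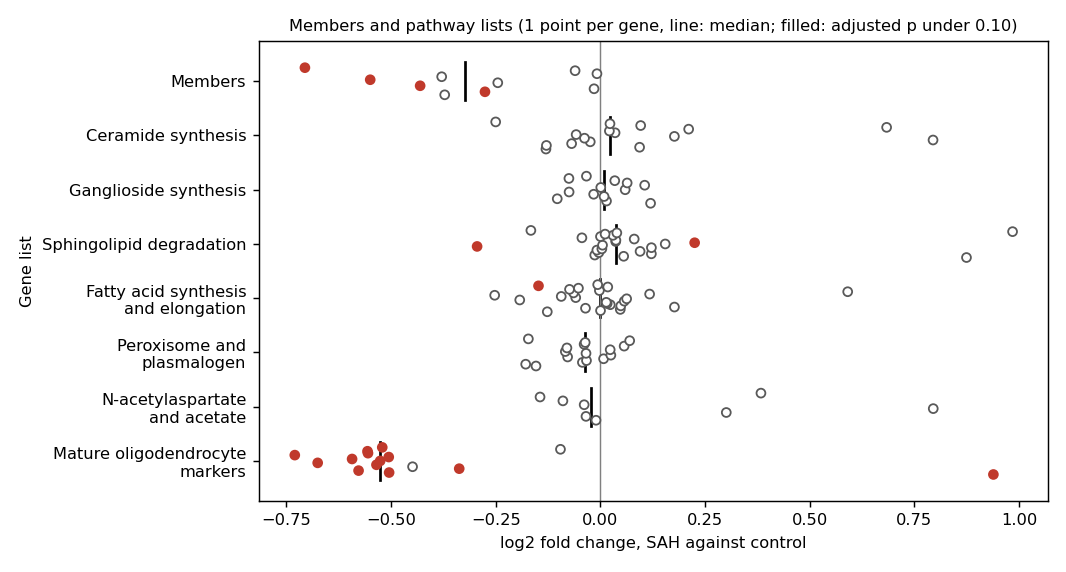
Log2 fold change in SAH against control (x axis) for the 10 genes, 6 lists of related lipid metabolism and the mature oligodendrocyte markers, with 1 point per gene, a line at the list median and filled points where the adjusted p from edgeR is under 0.10. The 10 genes have a median of -0.32 and the markers one of -0.53, while the medians of the 6 lists lie between -0.038 and 0.037.

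The genes whose pattern over the 10 mice was nearest to each member were found by the root mean square difference of centred log2 CPM among 13803 genes. For Ugt8a, whose own spread was 0.50, they were Cdc42ep2 (0.12), Atp10b (0.14) and the protease gene Adamts4 (0.15). For Fa2h, with a spread of 0.31, they were the adhesion molecule gene Mcam (0.064), S1pr5, a receptor for sphingosine-1-phosphate (0.066), and Plekhh1 (0.084). Cers2 had a spread of 0.15 and lay nearest to Fnbp1 (0.053), Serinc5 (0.053) and the chloride channel gene Clic4 (0.057). Elovl1, with a spread of 0.24, lay nearest to the integrin gene Itgb4 (0.049), to Irs1, the insulin receptor substrate (0.089), and to Nfasc, the neuronal and glial adhesion molecule neurofascin (0.092). All 12 of these neighbours were lower in SAH than in control at an adjusted p under 0.10 by edgeR. Since likeness was measured over the same mice, that direction follows from the choice.

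For Aspa (spread 0.27) the nearest genes were Qdpr (0.075), Ptp4a1 (0.095) and Cmtm5 (0.10), and for Gal3st1 (spread 0.28) they were Serf1 (0.074), Gramd3 (0.075) and Ick (0.079). Elovl7, with a spread of 0.22, had no gene closer than Zfp442 (0.12), followed by Tmbim1 (0.12) and Cd82 (0.12). Sptlc2 (spread 0.12) lay nearest to Ifnar1, Phlpp2 and Ranbp6, Degs1 (spread 0.070) to Usp38, Egln1 and Ddx49, and Galc (spread 0.059) to Fyttd1, Tmem101 and Taf1, at differences of 0.022 to 0.039.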

How the data were processed

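Ribosome-depleted, stranded libraries were made from RNA with an integrity number above 9. The authors aligned read pairs to mm9 with STAR and used featureCounts 1.6.2 to count those on exons of a single gene name, by strand; reads aligned to several places were left out. The values deposited by the authors are raw counts. They were analysed with edgeR 4.0.16 in R 4.3.3: TMM, filterByExpr (minimum count 10, minimum total 15), quasi-likelihood test, and Benjamini-Hochberg adjustment over all genes tested, with a threshold of 0.10. Sham and Naive were pooled as control in a 2-group fit, and pairwise comparisons came from a 3-group fit. CPM used TMM-scaled library sizes, and log2 CPM a prior count of 2. The standard error was the log2 fold change divided by the square root of F. No 2 libraries were duplicates. P-values measure the spread between mice, and a count of 0 is given with the counting limit of 3, which covers counting error only.

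Named genes were the 10 enzymes, every pathway list gene past the threshold against control, the 3 nearest genes in pattern to each enzyme (mean CPM of at least 1), and mature oligodendrocyte markers; some genes under this rule are not reported here. These genes, lists and tests were chosen with earlier results of these data known. Alternatives included DESeq2 1.42.0 and a choroid plexus score as covariate. Leaving out the 3 libraries high in choroid plexus markers was added after seeing the data. Calculations were tested on simulated data. Python 3.11.15, numpy 2.4.6, pandas 2.3.3 and matplotlib 3.10.9 were used.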

Additional observations from a re-analysis of the deposited data

Results flagged for a closer look

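In 4 of 20 groups of values tested (10 genes in SAH and in control), 1 mouse stood apart from the others by Dixon's criterion, which flags about 1 in 20 groups by chance. Fa2h in SAH mouse 3 was at 30.2 CPM, with the next SAH mouse at 41.4. Elovl7 in SAH mouse 4 was at 22.3 CPM, with the next at 18.3. In control, Sham mouse 7 was highest for Elovl7, at 31.1 CPM against 21.9 for the next mouse, and for Aspa, at 27.6 CPM against 21.9. These 3 mice are the ones high in choroid plexus markers, whose part in these values was not tested.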

How the results depend on the processing

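With 4 SAH, 3 Sham and 3 Naive mice, small differences were not detectable. The cause of calls lost or gained was not tested. Of 760 values of single genes under alternatives, 663 kept their direction and side of the threshold, 43 lost a call, 10 gained one and 44 changed sign. SAH against control gave 3 to 6 of the 10 genes under every alternative, and Sham against Naive 0. Against Sham, 4 genes were called by DESeq2, 1 without the 3 libraries high in choroid plexus markers, 0 at adjusted p under 0.05, 0 with only the mice of both groups, and 0 to 3 with each mouse left out. Against Naive, 1 gene (Elovl1) was called with the choroid plexus covariate, and 0 to 5 with each mouse left out. Calls over all genes numbered 198 (with the choroid plexus covariate) to 1093 (without SAH mouse 2) beside 701 in SAH against control, 6 (without Sham mouse 6) to 302 (DESeq2) beside 109 against Sham, 109 (without Naive mouse 8) to 744 (DESeq2) beside 453 against Naive, and 0 to 4 beside 1 in Sham against Naive. No paired analysis was possible because each mouse number occurs once.

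All values that changed sign were of genes not called. Without the 3 libraries high in choroid plexus markers, Sptlc2 was at 0.040 against control, 0.033 against Sham, 0.045 against Naive and 0.012 in Sham against Naive, Galc at -0.041 against Sham, and Elovl7 and Degs1 at -0.12 and -0.0066 in Sham against Naive. With the choroid plexus covariate, Galc was at -0.0020 against Sham, Sptlc2 at 0.040 against Naive, and Elovl7, Sptlc2 and Degs1 at -0.10, 0.063 and -0.018 in Sham against Naive. With library size alone, Degs1 was at 0.0069 against Naive, and Cers2 and Sptlc2 at 0.0079 and 0.0028 in Sham against Naive. With at least 10 counts in every mouse, Degs1 was at 0.00032 against Naive. With each mouse left out in turn, SAH against control ranged from -0.11 to 0.024 for Sptlc2, -0.061 to 0.021 for Degs1 and -0.046 to 0.019 for Galc. Against Sham the ranges were -0.11 to 0.028, -0.074 to 0.0091 and -0.028 to 0.044. Against Naive they were -0.12 to 0.021, -0.048 to 0.034 and -0.065 to 0.00035. In Sham against Naive they were -0.057 to 0.034 for Cers2, -0.12 to 0.25 for Elovl7, -0.052 to 0.034 for Sptlc2 and -0.0086 to 0.055 for Degs1.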
